A study of Mus musculus with 2 samples.

Results

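The cells described here are Lgr5-positive cells of the mouse jejunum in which few or no cell cycle genes were detected and which were not Paneth or goblet cells by their transcripts. They were picked from 22282 kept cells, those with at least 500 detected genes and at most 20% of their UMIs (unique molecular identifiers, one per captured transcript) from mitochondrially encoded genes. A cell was a member when it had at least 1 UMI of Lgr5, at most 1 of the 5 mitotic genes Mki67, Top2a, Cdk1, Ccnb1 and Cenpf, and at most 3 of the 6 S phase genes Mcm5, Mcm6, Pcna, Rrm2, Tyms and Uhrf1. Members also had under 10% of their UMIs from Lyz1 and the Defa genes of Paneth cells, and under 2% from the goblet cell genes Muc2, Fcgbp, Tff3, Agr2 and Spink4. The rule found 1633 cells, 1576 in the Fc control library and 57 in the FZD5/8 antagonist library. Because Lgr5 and the gate genes chose the members, their values are a description of the choice and not a finding.

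The mice carried Lgr5-eGFP-IRES-CreER, an allele that places GFP and an inducible Cre recombinase in the Lgr5 gene, and jejunal cells had been sorted for GFP. All mice of both groups carried this allele, were labelled female and were 10 to 12 weeks old. There were 3 mice per condition, given an Fc control protein or an antagonist of FZD5 and FZD8, and 1 droplet library per condition. The sources used here give neither the dose nor the duration. Cells were not assigned to single mice by any label, which leaves 1 sample per group and allowed no test. Every comparison is therefore between these libraries. All intervals are 95% intervals that cover counting error only, since neither differences between mice nor differences between cells enter them.

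Crypt base columnar cells lie between Paneth cells at the bottom of the intestinal crypt, divide regularly and renew the epithelium. LGR5, their defining surface protein, is a receptor for R-spondins, which raise the amount of Frizzled receptors at the membrane by keeping the ubiquitin ligases RNF43 and ZNRF3 from removing them. Wnt ligands bind Frizzled proteins such as FZD5 and FZD8 together with LRP co-receptors, which stabilises beta-catenin and raises transcription of TCF target genes, among them Lgr5, Ascl2 and Axin2. ASCL2 is a transcription factor of stem cell identity, OLFM4 a secreted glycoprotein that is abundant in these cells, SMOC2 a secreted matrix protein and AXIN2 a feedback inhibitor of Wnt signalling.

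The libraries differed beyond their labels. The control library held 67411637 UMIs in 12672 barcodes, of which 11263 were kept (median 4478 UMIs), and the antagonist library 55810293 UMIs in 13085 barcodes, of which 11019 were kept (median 2732 UMIs). The libraries shared 145 barcodes. Of the members, 12 control cells and 1 antagonist cell sat on a shared barcode. Without shared barcodes the members made up 14.0% and 0.514% of kept cells, close to the values below, and no named gene moved. Sex-linked transcripts went against the labels. In control members 4 genes of the Y chromosome (Ddx3y, Eif2s3y, Kdm5d and Uty) had 902 UMIs in all, 121 CPM, in 640 of 1576 cells, and in antagonist members 2 UMIs, 13.4 CPM. CPM here is a gene's UMIs per 1000000 UMIs of the summed cells. Xist, the RNA that silences an X chromosome in female cells, had 12 UMIs (1.61 CPM) in control members and 99 UMIs (666 CPM) in antagonist members, in 32 of 57 cells. Condition, library and the animals' sex-linked expression cannot be told apart in any comparison between the libraries.

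Lgr5-positive non-mitotic cells were scarce in the antagonist library. They made up 14.0% of kept control cells (1576 of 11263, exact binomial interval 13.4 to 14.6%) and 0.517% of kept antagonist cells (57 of 11019, 0.392 to 0.670%). Among only those cells that passed the cell cycle, Paneth and goblet gates, Lgr5 was detected in 25.4% of 6196 control cells (24.4 to 26.5%) and in 1.11% of 5118 antagonist cells (0.845 to 1.44%). The intervals lay far apart with either denominator.

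The gap was present at every depth that could be compared. Among kept cells under 2000 UMIs, members made up 10.8% of control cells (257 of 2380) and 0.632% of antagonist cells (26 of 4115). From 2000 to under 4000 UMIs the shares were 17.3% (462 of 2676) and 0.662% (22 of 3322). From 4000 to under 8000 UMIs they were 17.7% (672 of 3787) and 0.366% (9 of 2462). At 8000 UMIs or more, 7.64% of control cells (185 of 2420) and 0 of 1120 antagonist cells were members. The exact interval of this count of 0 reached 0.329%. Each antagonist bin was thus below every control bin. When each cell was thinned to 3000 UMIs, which left out 3727 control cells (33.1%) and 5983 antagonist cells (54.3%), the shares were 11.5% (869 of 7536, 10.8 to 12.3%) and 0.397% (20 of 5036, 0.243 to 0.613%). All gates were applied again to the thinned counts. A thinned member can therefore be a cell that failed a cycle gate at full depth. Values after thinning thus differ in the set of cells as well as in depth.

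**Figure D1:**
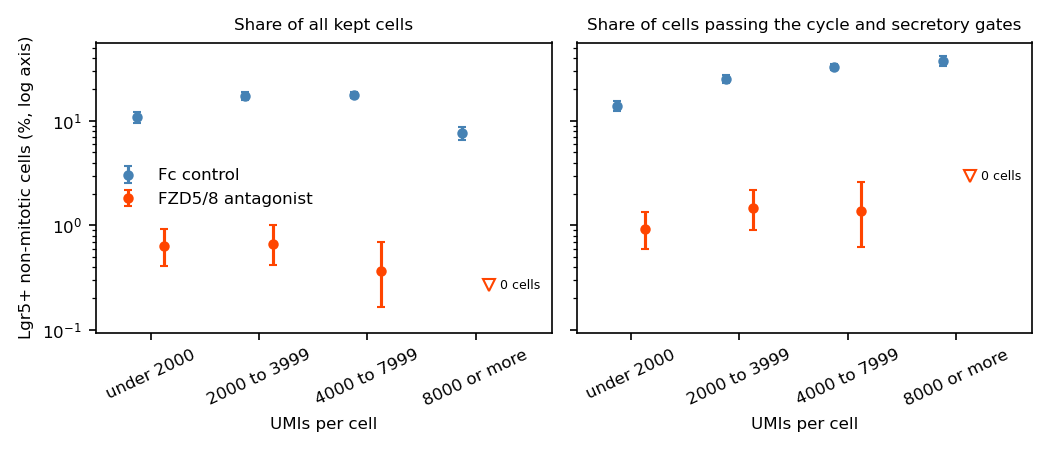
Share of cells that were Lgr5-positive and non-mitotic (percent, log axis) in bins of UMIs per cell, for the Fc control and the FZD5/8 antagonist library, with exact 95% binomial intervals; a triangle marks the limit that a count of 0 allows. Among all kept cells every control bin lies between 7.64% and 17.7% and every antagonist bin below 1%.

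Free RNA in droplets can add an Lgr5 UMI to a cell that does not express the gene. In cells rich in apolipoprotein transcripts, which belong to absorptive enterocytes, Lgr5 was detected in 5 of 106 control cells (4.72%, 1.55 to 10.7%, median 5856.5 UMIs). It was detected in 0 of 168 antagonist cells (median 3803 UMIs), where the exact interval reached 2.17%. The control share among gated cells, at a median of 3374 UMIs, was above the control interval. Other secretory cells carried Lgr5 more often. Cells with at least 3 of 4 tuft cell markers had an Lgr5 UMI in 64 of 263 control cells (24.3%, 19.3 to 30.0%, median 4901 UMIs) and 19 of 344 antagonist cells (5.52%, median 4036 UMIs). Cells over the Paneth limit had one in 52 of 235 control cells (22.1%, 17.0 to 28.0%, median 4685 UMIs) and 8 of 483 antagonist cells (1.66%, median 2977 UMIs). Both control intervals held the 25.4% of gated cells. Thinned to 3000 UMIs, the control shares were 18.8% of gated cells (17.7 to 19.99%), 11.8% of tuft marker cells (7.34 to 17.6%) and 9.52% of Paneth gate cells (5.02 to 16.0%). The antagonist share of 1.11%, at a median of 1784.5 UMIs, was under the limit that its 168 background cells allow, and below both secretory shares, so by share alone Lgr5 detection there was not separable from background. The other markers, which the rule did not use, are therefore given next.

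Control members carried the markers of crypt base stem cells. Of Ascl2, Olfm4, Smoc2 and Axin2, at least 1 was detected in all but 13 of 1576 cells (0.825%, 0.440 to 1.41%), and 184 cells (11.7%) had all 4. Olfm4 was detected in 98.4% of control members, Axin2 in 52.3%, Smoc2 in 52.0% and Ascl2 in 30.9%. The summed level of 12 crypt base stem cell markers, Lgr5 included, was 6569 CPM. Over all control members, T cell markers had 0 UMIs, and mesenchymal, endothelial and erythroid markers had 1, 4 and 2 UMIs. B and plasma cell markers had 15 UMIs, myeloid markers 129 UMIs in 119 cells (7.55%) and goblet markers 403 UMIs in 151 cells (9.58%). At least 2 myeloid markers were found in 1 cell and at least 2 goblet markers in 10. Paneth markers had 3466 UMIs in 1230 cells (78.0%). The goblet markers Muc2 and Fcgbp and the Paneth marker Lyz1 are genes of the rule, so the gates limited these counts. By its stem cell markers the control set fitted its description, with markers of other types also present.

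The antagonist set fitted it in part. Of the 57 cells, 16 (28.1%, 17.0 to 41.5%) had none of the other 4 markers, 23 had 1, 14 had 2, 3 had 3 and 1 had all 4. Olfm4 was detected in 39 cells (68.4%), Axin2 in 15 (26.3%), Smoc2 in 6 (10.5%) and Ascl2 in 4 (7.02%). The same 12 markers summed to 3154 CPM, with Tnfrsf19 at 0 UMIs. Depth differed too, at a median of 4259 UMIs per control member (710 to 27260) and 2402 per antagonist member (700 to 6528). After thinning to 3000 UMIs, 10 of 869 control members (1.15%) and 1 of 20 antagonist members (5.0%, 0.127 to 24.9%) had none of the 4 markers, a difference within counting error.

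Antagonist members still stood apart from their neighbours. Of 5061 antagonist cells that passed the same gates without an Lgr5 UMI, called Lgr5-undetected cells below, 53.7% (52.3 to 55.1%) had none of the 4 markers, against 28.1% of antagonist members. Among control Lgr5-undetected cells the share was 5.91% (273 of 4620, 5.25 to 6.63%). With all UMIs, antagonist members thus lay between the undetected cells of their own library and those of the control library. Thinned to 3000 UMIs, the 5.0% of antagonist members (1 of 20) was below the 51.1% of their own undetected cells, and its interval held the 7.69% of control undetected cells. Lgr5-undetected cells are no pure class without Lgr5, since a cell with few captured transcripts can miss it.

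**Figure D2:**
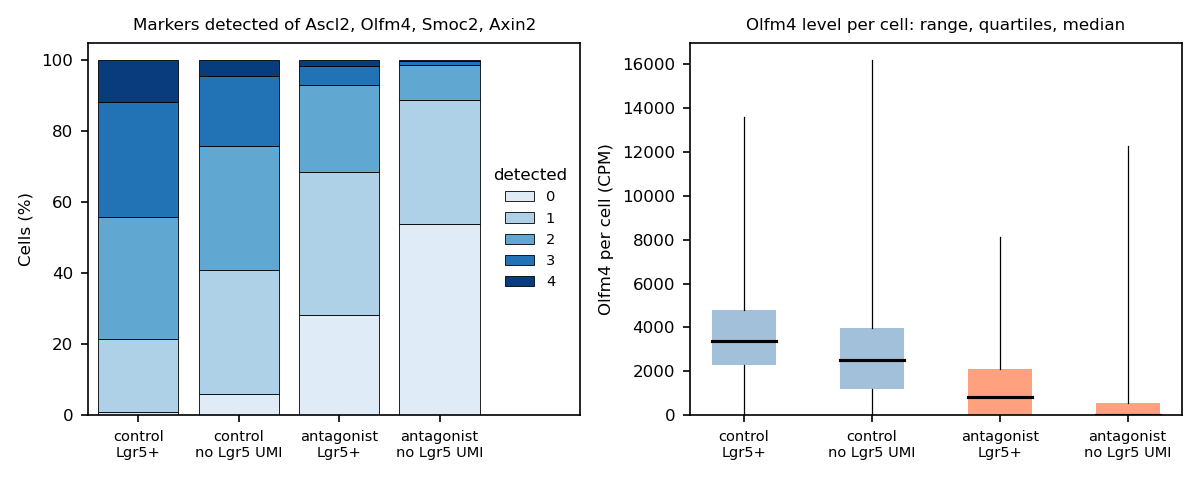
Left, percent of cells with 0 to 4 of Ascl2, Olfm4, Smoc2 and Axin2 detected; right, Olfm4 per cell in CPM with the range, quartiles and median, for Lgr5-positive non-mitotic cells and Lgr5-undetected cells of the same gates in each library. None of the 4 markers was found in 0.825% of control members and 28.1% of antagonist members, and the median Olfm4 level was 3376 CPM and 827 CPM.

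Some members carried markers of other cell types. Paneth cell markers were the most widespread, with at least 2 of 4 in 602 of 1576 control members (38.2%) and 7 of 57 antagonist members (12.3%). The shares in Lgr5-undetected cells of the same gates were 38.4% and 11.1%. These cells were kept in all comparisons, and their part in the results was not tested. At least 2 of the tuft cell markers Dclk1, Trpm5, Avil and Sh2d6 were detected in 43 of 1576 control members (2.73%, 1.98 to 3.66%) and in 9 of 57 antagonist members (15.8%, 7.48 to 27.9%). Among Lgr5-undetected cells the shares were 3.83% and 4.60%. At least 2 enterocyte markers were found in 19 control members and at least 2 enteroendocrine markers in 4, and in 0 antagonist members each. Without the tuft, enterocyte and enteroendocrine marker cells, 1512 control and 48 antagonist cells remained. The 9 tuft-marker cells of the antagonist set had 335 CPM of Olfm4 (9 UMIs) and no UMI of Ascl2 or Smoc2, while the other 48 had 1830 CPM of Olfm4 and no UMI of Dclk1. The 43 of the control set had 1317 CPM of Olfm4, below the 3593 CPM of the other control members. Each comparison below is given with and without these 3 kinds of marker cells where they move it.

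The control members were not uniform. Lgr5 itself was seen as 1 UMI in 1150 of them, 2 UMIs in 306 and 3 or more in 120. Just inside the mitotic gate, 664 had 1 mitotic gene, and 376 Lgr5-positive cells with 2 lay just outside it. Inside the S phase gate 117 had 3 S phase genes, and 53 cells with 4 lay outside. In the antagonist set, 54 cells had 1 Lgr5 UMI and 3 had 2. There 23 members had 1 mitotic gene with 11 cells just outside, and 7 had 3 S phase genes with 3 cells just outside.

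More Lgr5 went with more of several stem cell transcripts in the control library. After thinning to 3000 UMIs, Olfm4 stood at 2569 CPM in 3746 gated cells without Lgr5, 3499 CPM in 694 members with 1 Lgr5 UMI and 4238 CPM in 175 members with 2 or more. Slc12a2, a sodium, potassium and chloride cotransporter used as a crypt base marker, stood at 845, 1175 and 1415 CPM. Rgmb, a BMP co-receptor of the stem cell signature, stood at 116, 183 and 259 CPM. All 3 ran upward with the Lgr5 count. Dmbt1, a scavenger receptor-like glycoprotein secreted by the gut lining, ran the other way at 1004, 559 and 409.5 CPM. Reg3g, an antimicrobial lectin, was at 1416, 1268 and 796 CPM. Ascl2 was at 71.7 (66.9 to 76.8), 77.3 (65.8 to 90.2) and 78.1 CPM (56.0 to 106), and these intervals overlapped.

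Depth also sorted the control members. Olfm4 was at 3810 CPM in members under 2000 UMIs and at 3117 CPM in those of 8000 UMIs or more, and Reg3b, another antimicrobial lectin, at 378 and 2115 CPM. Mki67, a gene of the rule, was at 68.7 and 9.20 CPM in the same bins. Both sets of cells had passed the same gates. Shallow control members also had more mitochondrial RNA, at a median of 9.76% of UMIs in the lowest bin and 2.97% in the highest.

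Compared with Lgr5-undetected cells of the same gates, control members were richer in stem cell transcripts by modest factors. Of 1538 genes with 100 CPM or more in either set, 0 (0%) were 2-fold or more higher in members and 20 (1.3%) were 2-fold or more lower. The highest ratio belonged to Lbh, a transcriptional regulator and Wnt target, at 230 CPM in members and 132 CPM in undetected cells, a ratio of 1.74 (exact conditional interval 1.63 to 1.85). Gkn3, a gastrokine of the crypt base in mouse, had a ratio of 1.69 (1.59 to 1.79) and Rgcc, a regulator of the cell cycle, 1.55 (1.41 to 1.69). Soat1, which esterifies cholesterol, had a ratio of 1.53, Rgmb 1.47, Acot1, an acyl-CoA thioesterase, 1.46 and Slc12a2 1.45. Olfm4 had levels of 3514 and 2451 CPM and a ratio of 1.43 (1.41 to 1.46), Pdgfa had 1.43, Smoc2 1.42 and Ascl2 1.40. In the Lgr5 stem cell signature, 33 of 34 genes with a mean of 50 CPM or more were higher in members, with a median log2 ratio of 0.44 beside 0.03 for 2952 genes. Of 8 Wnt target genes, 8 were higher, with a median of 0.24.

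The genes lowest in control members were mostly products of the absorptive lineage. Reg1 was 9.25-fold lower in members than in undetected cells (8.32 to 10.3), Gsta1 8.38-fold, Apoa4 7.20-fold, Apoa1 6.72-fold and Sis, the brush border sucrase, 6.26-fold. These came from few cells. Without cells holding 2 or more tuft, enteroendocrine or enterocyte markers, 0 of 1527 genes were 2-fold higher and 0 were 2-fold lower. Apoa1, Apoa4 and Sis were among the markers used for this removal, so their smaller differences follow in part from it. The enterocyte list then had 7 genes higher and 8 lower, with a median of -0.04, against 0 of 21 higher and a median of -1.13 with all cells. The stem cell signature kept its direction, with 35 of 36 genes higher and a median of 0.27. Dmbt1 was lower in members with all cells (504 and 976 CPM, a ratio of 0.516) and without the marker cells (1.97-fold lower, 1.90 to 2.04).

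Against control Lgr5-positive cells that failed a cell cycle gate, 1412 cells with a median of 7458.5 UMIs, the members differed mainly in the genes of division. Of 1603 genes, 3 (0.187%) were 2-fold or more higher in members and 38 (2.37%) lower. The lowest were Nusap1, a spindle protein, at 13.7-fold lower, Prc1, a cytokinesis protein, at 12.8-fold, Knl1 of the kinetochore at 10.3-fold, Tpx2 of the spindle at 9.26-fold and the histone gene Hist1h1b at 9.13-fold. In the list of mitotic genes outside the rule, 18 of 18 genes with a mean of 50 CPM were lower. The cycle gates chose these cells, so this repeats the choice. Stem cell genes that the gates do not touch differed less. Lbh stood 1.93-fold higher in members (1.80 to 2.07), Pdgfa 1.59-fold, Gkn3 1.57-fold, Slc12a2 1.35-fold and Olfm4 1.15-fold. Ascl2 had a ratio of 0.980 and Axin2 1.02, with both intervals including 1. The 3 genes past 2-fold were Ghrl, of which 1 cell held 778 of 783 UMIs, Apoa1 and Rbp2, of which 10 cells held 90.2% and 90.7% of the members' UMIs.

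**Figure D3:**
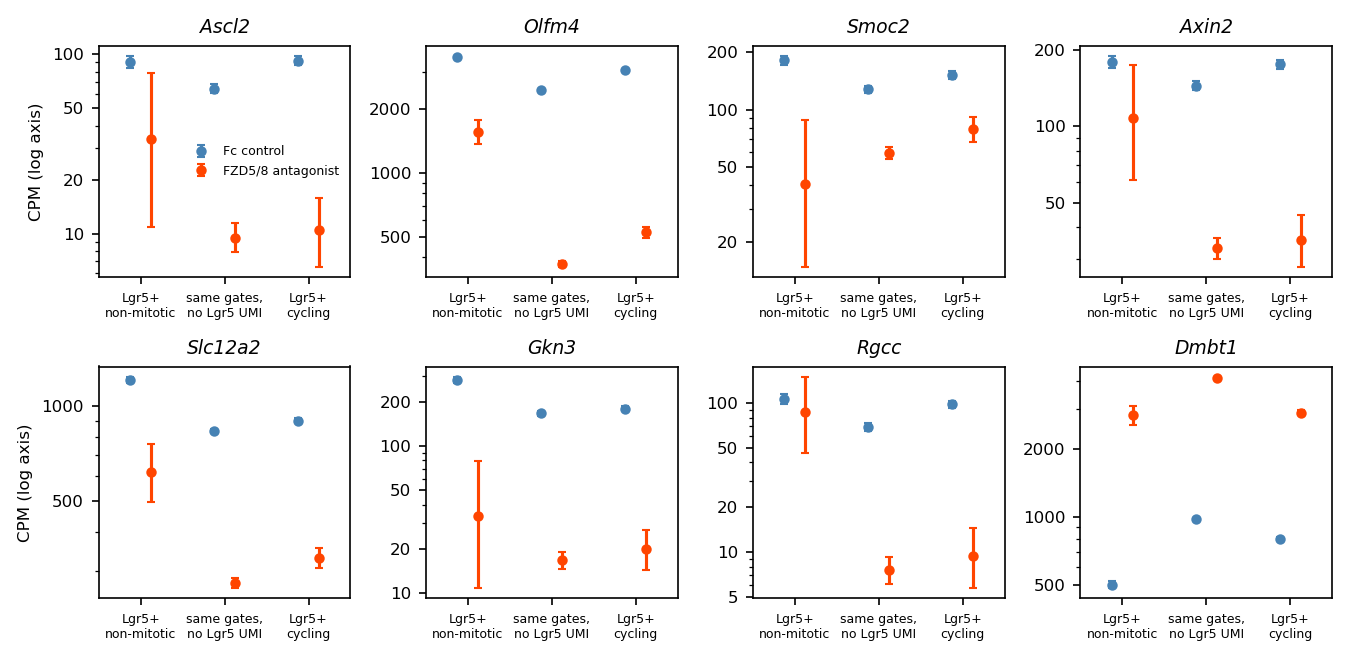
Level in CPM (log axes) of Ascl2, Olfm4, Smoc2, Axin2, Slc12a2, Gkn3, Rgcc and Dmbt1 in Lgr5-positive non-mitotic cells, Lgr5-undetected cells of the same gates and Lgr5-positive cycling cells, for each library, with exact 95% Poisson intervals from summed UMIs. Olfm4 stands at 3514, 2451 and 3052 CPM for the control and at 1560, 371 and 524 CPM for the antagonist.

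The few Lgr5-positive non-mitotic cells of the antagonist library had less of most other stem cell transcripts per UMI than their control counterparts. Of 1750 genes with 100 CPM or more in either set, 64 (3.66%) were 2-fold or more higher in antagonist members and 60 (3.43%) were 2-fold or more lower. The balance depended on the scaling, with 50 higher and 76 lower under TMM scaling, and 81 and 125 when mitochondrially encoded and ribosomal protein genes were left out of the totals. In the Lgr5 stem cell signature, 45 of 52 genes with 20 or more UMIs over both sets were lower, 3 were higher and 4 allowed no fold, with a median log2 ratio of -1.05 beside 0.07 for all 10436 such genes. With a mean of 50 CPM or more, the limit used for the lists elsewhere and chosen after seeing the data, 30 of 31 genes were lower and 1 was higher, with a median of -1.11 beside 0.09 for 2942 genes. A gene could pass either limit through the control members alone. Without the tuft, enteroendocrine and enterocyte marker cells, 29 of 31 were lower with a median of -0.96, and of 1709 genes tested 62 (3.63%) were 2-fold or more higher and 62 (3.63%) lower. Between the Lgr5-undetected cells of the libraries, 25 of 1600 genes (1.56%) were 2-fold or more higher in the antagonist library and 35 (2.19%) lower. The genes of this list were set down with results of these libraries known, so their direction is not independent evidence.

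Olfm4 (GRCm38 chromosome 14, 79984081 to 80023139) was counted 26198 times in control members, 3514 CPM, and 232 times in antagonist members, 1560 CPM. This was 2.25-fold lower (1.98 to 2.57). Slc12a2 was at 1212 CPM (9038 UMIs) and 619 CPM (92 UMIs), 1.96-fold lower (1.60 to 2.43). Both genes were also lower without the tuft-marker cells and with control members weighted to the depth of the antagonist members. The size for Olfm4 depended on which cells were counted. Its log2 ratio of -1.17 was -2.06 after thinning to 3000 UMIs (867 and 3647 CPM, 52 UMIs in antagonist members), -2.45 without a cycle gate and -1.73 with strict gates.

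The scarcer stem cell transcripts rest on a handful of UMIs in the antagonist set. Ascl2 (chromosome 7, 142966829 to 142969264) had 674 UMIs in control members, 90.4 CPM, and 5 in antagonist members, 33.6 CPM, 2.69-fold lower (1.15 to 8.31). Smoc2 (chromosome 17, 14279506 to 14404790) had 1354 and 6 UMIs, 182 and 40.3 CPM, 4.50-fold lower (2.06 to 12.3). Axin2 (chromosome 11, 108920349 to 108950783) had 1334 and 16 UMIs, 179 and 108 CPM, 1.66-fold lower (1.02 to 2.92). The 3 intervals excluded equality, Axin2 and Ascl2 narrowly, but none did after thinning, which also changed the set of members. Thinned to 3000 UMIs, the 20 antagonist members had 3 UMIs of Ascl2, 6 of Smoc2 and 9 of Axin2. The ratios were then 0.645 (0.132 to 1.91), 0.598 (0.218 to 1.31) and 0.815 (0.370 to 1.56). The log2 ratio of Axin2, at -0.69 with all UMIs, was -2.13 without a cycle gate and -1.70 with strict gates.

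Among the 1750 genes, Ghrl had no UMI in antagonist members and is given below, and the lowest ratios of the others were those of Gkn3 and Lbh. Gkn3 (chromosome 6, 87383256 to 87388935) had 2093 and 5 UMIs, 281 and 33.6 CPM, 8.35-fold lower in antagonist members (3.57 to 25.7). Lbh (chromosome 17, 72918305 to 72941947) had 1713 and 5 UMIs, 230 and 33.6 CPM, 6.83-fold lower (2.92 to 21.1). Both also led the ratios of control members over undetected control cells, a comparison that shares the control members with this one. Soat1 followed at 4.37-fold lower (2.55 to 8.22), Acot1 at 3.98-fold, Rnf43, the ligase that removes Frizzled receptors and itself a Wnt target, at 3.11-fold (1.51 to 7.76), Cdk6, a G1 kinase, at 2.36-fold and Rgmb at 2.0-fold (1.19 to 3.66). Phlda1 had 377 UMIs and 1 UMI, a ratio of 0.133 with an interval from 0.00336 to 0.745.

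Some genes of the stem cell compartment separated less under the rule's own gates and with all UMIs. Rgcc was at 107 CPM (795 UMIs) in control members and 87.4 CPM (13 UMIs, 7 of them in 1 cell) in antagonist members, a ratio of 0.820 (0.435 to 1.41). Myb, a transcription factor of crypt progenitors, had a ratio of 0.965 (0.634 to 1.41) and Sox9, a transcription factor of the crypt base and of tuft and Paneth cells, 0.700 (0.471 to 1.0). Hopx, a marker of reserve stem cells, was 1.42-fold lower (1.10 to 1.87). Cd24a, a surface protein of Paneth and tuft cells as well as stem cells, was the 1 signature gene with a higher level, 3.40-fold (2.79 to 4.12). Without the marker cells its ratio was 0.944. The values of Rgcc, Sox9 and Hopx moved with the choice of cells. After thinning to 3000 UMIs, Sox9 was 3.69-fold lower (1.57 to 11.4, 5 UMIs in antagonist members) and Hopx 2.43-fold lower (1.45 to 4.46). Rgcc then had 3 UMIs and a ratio of 0.426 (0.0874 to 1.26). Without a cycle gate the log2 ratios were -2.78 for Rgcc, -1.43 for Sox9 and -1.10 for Hopx, and with strict gates they were -1.71, 0.023 and -0.64. Myb stayed near equality after thinning, at 1.03 (0.528 to 1.81).

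**Figure D4:**
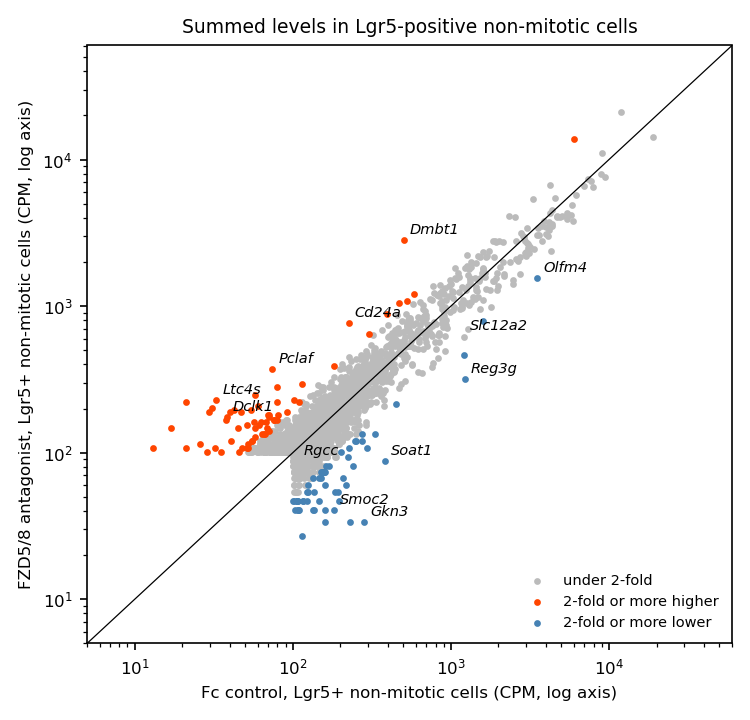
Level in CPM (log axes) of each tested gene in control members (horizontal) and antagonist members (vertical), summed over cells, with equality drawn as a line and genes 2-fold or more higher or lower in colour; genes with 0 UMIs in a library are not drawn. Stem cell genes such as Gkn3, Smoc2 and Olfm4 lie below the diagonal, and Dmbt1, Pclaf and tuft cell genes such as Ltc4s lie above it.

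The antagonist members were spread widely in Olfm4. Per cell, control members had a lower quartile of 2280, a median of 3376 and an upper quartile of 4786 CPM, with 26 of 1576 cells at 0. Antagonist members had 0, 827 and 2087 CPM, with 18 of 57 cells at 0 and the highest at 8108 CPM. The upper quartile of antagonist members was below the lower quartile of control members, yet the ranges overlapped. At or above the control lower quartile were 14 antagonist members (24.6%, 14.1 to 37.8%), against 1182 control members (75%).

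Where sex-linked transcripts were detected in these 14 cells, they were those of their own library. The cells without any cannot be placed this way. Xist was detected in 6 of the 14 and Y-linked genes in 0, none sat on a shared barcode, and their median depth was 2166.5 UMIs. Dmbt1 exceeded the control members' upper quartile of 693 CPM in 11 of them. At least 1 of Ascl2, Smoc2 and Axin2 was detected in 9 of the 14 and in 11 of the other 43, and the tuft-marker cells were all among the 43. The 14 were picked by Olfm4, so these counts describe them and are no comparison of groups.

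Slc12a2 and Cdca7, a MYC target of the stem cell signature, had like distributions. Slc12a2 had a median of 1159 CPM per control member and 414 CPM per antagonist member, where 18 of 57 cells were at 0. Cdca7 had medians of 397 and 0 CPM, with 33 of 57 antagonist members at 0. A cell of 2402 UMIs can miss a gene by sampling, so single cells at 0 carry little information about expression.

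The receptors that the antagonist addresses were thinly counted. Fzd5 had 377 UMIs (50.6 CPM) in control members and 12 UMIs (80.7 CPM) in antagonist members, a ratio of 1.60 (0.817 to 2.82). Fzd8 had 9 UMIs and 0 UMIs, which allows no fold, and Fzd7 had 122 UMIs and 1 UMI. Lgr4, the second R-spondin receptor of the crypt, had levels of 129 and 155 CPM and a ratio of 1.20 (0.756 to 1.81). Znrf3 had 228 and 2 UMIs. No difference in receptor levels was detectable at this depth. Of 8 Wnt target and feedback genes with a mean of 50 CPM, 6 were lower and 2, Lgr4 and Tcf7l2, were higher, with a median log2 ratio of -0.37 beside 0.09 for all genes. With genes of 20 or more UMIs, 12 of 19 were lower, 3 were higher and 4 allowed no fold, and the median was -0.70. With stricter cycle gates that median was -0.26. Lgr5 itself, fixed by the rule at 1 UMI or more per cell, was at 291 and 403 CPM.

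Antimicrobial, immediate early and MHC class II transcripts were among the other lower genes. Reg3g was at 1222 CPM (9111 UMIs) and 316 CPM (47 UMIs), 3.87-fold lower in antagonist members (2.91 to 5.27), and its log2 ratio was -1.94, or -1.37 with control members weighted to the antagonist members' depth, -1.53 with equal weight for each cell, -3.97 after thinning (4 UMIs in antagonist members) and -4.63 with strict cycle gates. Jun, an immediate early transcription factor, had 851 and 4 UMIs, 4.24-fold lower (1.65 to 15.6), and 7 of 7 immediate early and dissociation genes were lower with a median of -0.89. Ddit4, an inhibitor of mTORC1 signalling, was 4.72-fold lower (2.02 to 14.6), Rnase4 4.17-fold, Zfp292 3.62-fold and Fam13a 3.58-fold. Cd74, the invariant chain of MHC class II, was at 763 and 383 CPM, 1.99-fold lower (1.53 to 2.63). Neither Reg3g nor Cd74 was particular to members. In control and antagonist Lgr5-undetected cells thinned to 3000 UMIs, Reg3g was at 1416 and 580 CPM and Cd74 at 676 and 330 CPM. The 47 Reg3g UMIs of antagonist members lay in 10 cells, 20 of them in 1 cell, which the interval does not cover. H2-Eb1 and H2-Aa had 3 UMIs each in antagonist members, with ratios of 0.222 (0.0456 to 0.651) and 0.239 (0.0492 to 0.702), while H2-Ab1 had a ratio of 1.13 (0.614 to 1.91). Of the 5 genes of the class II list, 4 were lower. Ghrl, the hormone ghrelin, had 783 UMIs and 0, at least 5.21-fold lower by the floor of 3 counts over the antagonist members, but nearly all came from 1 control cell.

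Most of the highest ratios came from the 9 tuft-marker cells. Xist had a ratio of 414. Among the other highest ratios were those of Matk, Trpm5, Ltc4s, Lrmp, Sh2d6, Dmbt1, Avil, Pclaf, Kctd12 and Dclk1, from 8.75 to 4.57. Ltc4s, the leukotriene C4 synthase, had 244 UMIs (32.7 CPM) in control members and 34 UMIs (229 CPM) in antagonist members, a ratio of 6.99 (4.73 to 10.0). Trpm5, the cation channel of taste and tuft cells, had a ratio of 8.27 (4.55 to 14.1). All 11 measured tuft genes were higher, with a median log2 ratio of 2.38. Without the marker cells none of the tuft list reached a mean of 50 CPM, and Dclk1 had 0 UMIs in the 48 remaining antagonist members. Cells were removed by Dclk1, Trpm5, Avil and Sh2d6, so low values of these genes in the rest follow from the removal. Kctd12 and Ltc4s, which were not used for it, had negative log2 ratios without the marker cells, as given below.

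Dmbt1 and Pclaf were higher with and without those cells. Dmbt1 (chromosome 7, 131032053 to 131121630) had 3756 UMIs, 504 CPM, in control members and 419 UMIs, 2818 CPM, in antagonist members, a ratio of 5.59 (5.04 to 6.19) and of 6.12 without the marker cells. Per cell its median was 245 CPM in control members, 573 of them at 0, and 1135 CPM in antagonist members, 8 of them at 0. Of the 57 antagonist members, 41 exceeded the control upper quartile, and 10 cells held 61.1% of their Dmbt1 UMIs. Dmbt1 was not particular to members, since antagonist Lgr5-undetected cells had 4111 CPM and control undetected cells 976 CPM. Pclaf, which binds PCNA at replication forks, had 551 and 55 UMIs, 73.9 and 370 CPM, a ratio of 5.0 (3.72 to 6.61). With stricter cycle gates its log2 ratio was 1.07, against 2.33.

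Cell cycle transcripts outside the rule were higher in antagonist members. In the G2 and M phase list 9 of 9 genes with a mean of 50 CPM were higher, with a median log2 ratio of 0.60, and in the S phase list 11 of 16, with a median of 0.48. A gene could pass this limit through the antagonist members alone. Birc5, an inhibitor of apoptosis that acts in mitosis, had a ratio of 3.26 (1.60 to 5.99), Nusap1 3.75 (1.58 to 7.66) and Ung, a uracil-DNA glycosylase, 2.96 (1.73 to 4.76). Mki67, which the gate limits, was at 26.0 and 53.8 CPM, values that describe the choice of cells. Antagonist members were also shallower than control members. Weighted to the same depth, Birc5 had a log2 ratio of 1.43 against 1.77, Nusap1 1.53 against 1.99 and Pclaf 2.04 against 2.33. Other settings moved some values up. After thinning to 3000 UMIs Birc5 was at 2.60 and Pclaf at 2.69. With strict cycle gates Birc5 was at 2.73 and Pclaf at 1.07. The part of depth and of the gates in these ratios was not tested. With no cycle gate, the log2 ratios of Nusap1 and Pclaf were 0.26 and 0.63, and Ung was at -0.14.

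**Figure D5:**
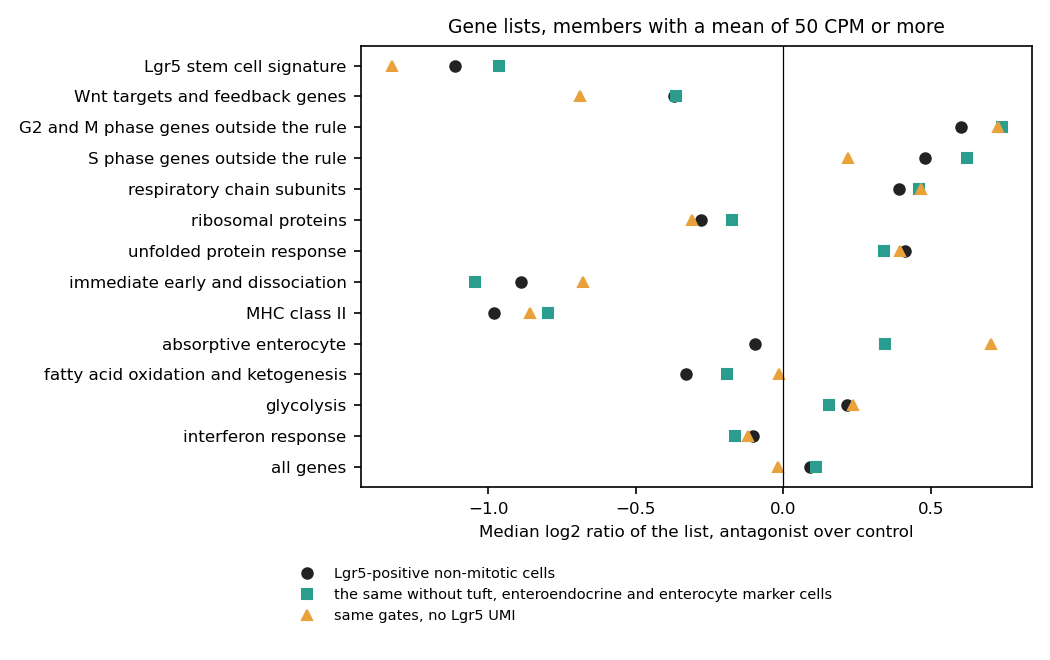
Median log2 ratio of antagonist over control cells for each list shown and all genes, over genes with a mean of 50 CPM, in all Lgr5-positive non-mitotic cells, in those without tuft, enteroendocrine and enterocyte marker cells, and in Lgr5-undetected cells of the same gates. The stem cell signature stands at -1.11, -0.96 and -1.33 and the immediate early list at -0.89, -1.04 and -0.68, and the absorptive enterocyte list changes side, at -0.10, 0.34 and 0.70. Its second value follows in part from the removal of cells by enterocyte markers.

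Metabolic and housekeeping groups are given beside the same lists in the Lgr5-undetected cells of the libraries. Of 78 nuclear-encoded respiratory chain subunits, 70 were higher in antagonist members, with a median log2 ratio of 0.39, and in undetected cells 77 of 79, with a median of 0.46. Ndufa3 of complex I had a ratio of 2.04 (1.73 to 2.39) and Atp5k of ATP synthase 1.90 (1.59 to 2.27). Of 85 ribosomal protein genes, 73 were lower with a median of -0.28, and in undetected cells 79 of 85, with a median of -0.31. The unfolded protein response list had 9 of 12 genes higher with a median of 0.41, led by Xbp1 (ratio 2.05, 1.16 to 3.37) and the chaperone Hspa5 (1.99, 1.43 to 2.70). In undetected cells 12 of 14 were higher, with a median of 0.40. In the cholesterol synthesis list Insig1 had a ratio of 4.04 (1.89 to 7.69, 10 UMIs in antagonist members) and Hmgcs1 2.65 (1.19 to 5.16), and in undetected cells the ratios were 3.56 (3.14 to 4.05) and 1.42 (1.27 to 1.60). After thinning to 3000 UMIs the log2 ratio of Hmgcs1 in members was 0.11. These are single genes, and the direction of the list as a whole is not given here. Fatty acid oxidation genes were lower in 12 of 14 cases, with a median of -0.33, while in undetected cells 7 of 14 were lower, with a median of -0.014. Glycolysis genes were higher in 10 of 14 cases, with a median of 0.21, and in undetected cells also in 10 of 14, with a median of 0.23.

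The enterocyte list showed how few cells can set a level. With all members 5 of 16 genes were higher in the antagonist set, with a median of -0.10. Without the marker cells, 10 of 15 were higher, with a median of 0.34. Enterocyte-marker cells were removed by Apoa1, Apoa4, Apoc3, Alpi and Sis. This took out 19 control and 0 antagonist members, so part of the rise follows from the removal. Fabp1, a fatty acid-binding protein of enterocytes, had a ratio of 1.05 (0.849 to 1.30) with all members and of 2.73 without the marker cells. In control members 10 cells held 74.3% of its UMIs.

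Within the antagonist library, members were richer in several stem cell transcripts than Lgr5-undetected cells. Of 1718 genes, 44 (2.56%) were 2-fold or more higher in members and 65 (3.78%) lower. Without the marker cells these were 27 (1.61%) and 19 (1.14%) of 1674. Olfm4 had levels of 1560 and 371 CPM and a ratio of 4.20 (3.67 to 4.79), and 3.85 without the marker cells. Slc12a2 had levels of 619 and 275 CPM and a ratio of 2.25 (1.81 to 2.77). Rgcc (13 UMIs, 7 of them in 1 cell) was detected in 6 of 57 members. It had levels of 87.4 and 7.61 CPM and a ratio of 11.5 (5.90 to 20.6). This interval takes no account of differences between cells. After thinning, Rgcc had 3 UMIs in members and a ratio of 6.87 (1.36 to 21.4). With all UMIs, Rgmb had a ratio of 3.77 (2.04 to 6.43), Ascl2 3.54 (1.13 to 8.51) and Axin2 3.26 (1.85 to 5.36). Of the signature genes with a mean of 50 CPM over both sets, all 17 were higher in members. Their median log2 ratio was 0.86 beside 0.12 for 2832 genes. Without the marker cells 17 of 19 were higher, with a median of 0.64. A gene could pass this limit through the members alone, so the counts favour genes high in members and are no independent evidence.

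Some stem cell genes were less clear. Smoc2 was at 40.3 CPM in antagonist members and 58.8 CPM in undetected cells, a ratio of 0.687 (0.251 to 1.5). Thinned to 3000 UMIs the order turned, on 6 UMIs in antagonist members, with a ratio of 1.80 (0.656 to 3.96), and neither interval excluded 1. Gkn3 had a ratio of 2.0 (0.644 to 4.75) and Lbh 2.48 (0.793 to 5.89), with intervals that include 1 on 5 UMIs each. Dmbt1 was lower in members, as in the control library, at 2818 and 4111 CPM, a ratio of 0.685 (0.621 to 0.755). With undetected cells weighted to the depth bins of the members, the ratio was 0.666. After thinning, which also changed the set of members, no difference was detectable, with 3967 and 3883 CPM and a ratio of 1.02 (0.895 to 1.16). The ratio of Olfm4 was then 3.07 (2.28 to 4.04), of Axin2 6.92 (3.1 to 13.5) and of Ascl2 4.8 (0.964 to 14.7). Sox9 had a ratio of 1.91 (1.28 to 2.74) with all members and 1.39 (0.806 to 2.24) without the marker cells. With all UMIs, the ratio of Olfm4 in members over undetected cells was 1.43 for control and 4.20 for antagonist cells, a difference between ratios that was not tested.

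Antagonist Lgr5-positive cells that failed a cycle gate, 92 cells, had lower summed levels per UMI of most of these genes than antagonist members. They had 524 CPM of Olfm4, 331 CPM of Slc12a2, 35.5 CPM of Axin2 and 10.4 CPM of Ascl2, but 78.6 CPM of Smoc2. Of these cells 32 were over 20000 UMIs and 14 of all Lgr5-positive antagonist cells sat on shared barcodes (none of the antagonist members was over that depth). Kept antagonist cells on shared barcodes had a median of 64920 UMIs, and deep cells weigh most in summed levels. Detection was higher in the 92 cells, at a median of 7531.5 UMIs against 2402 in members. Ascl2 was found in 19.6% of them and 7.02% of members, Smoc2 in 53.3% and 10.5%, Axin2 in 43.5% and 26.3%, and Olfm4 in 87.0% and 68.4%. Among Lgr5-positive cells, members made up 51.5% of the control cells (1576 of 3059, 49.7 to 53.3%) and 35.8% of the antagonist cells (57 of 159, 28.4 to 43.8%), and cells failing a cycle gate 46.2% and 57.9%.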

How the data were processed

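Per the labels, jejunal cells sorted for GFP had been captured with 10x Genomics Chromium 3' chemistry. The deposited matrices hold raw UMI counts of each gene in each barcode. The reads had been aligned to GRCm38 (mm10) and collapsed with Cell Ranger, per the submitters' processing notes (version 3.1.0 per the file headers). The sources used here do not state the annotation release or the barcode calling. Of the 31053 gene identifiers in the files, 30934 were found in a GRCm38 annotation (GENCODE), which gave the coordinates.

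UMI counts were summed over the cells of a set and divided by the set's total to give CPM. Intervals are exact, at 95% and for counting error only. They are Poisson for levels, conditional binomial for ratios and Clopper-Pearson for shares. PCR duplicates are removed by UMIs, but cells and mice still vary beyond this error. A count of 0 had a floor of 3 counts over the set. Log2 ratios had 0.5 added to each sum. No test was made, because each condition had 1 library. No doublet caller was run here. Leaving out cells over 20000 UMIs was an alternative. The 40 genes of the rule were left out of counts of genes and of lists. Columns of samples outside the series numbered 0.

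The members, all 40 gene lists, the alternatives and the naming rule were chosen with earlier results of these data known. The rule always named Lgr5, Ascl2, Olfm4, Smoc2, Axin2, Fzd5, Fzd7, Fzd8, Lgr4, Rnf43, Znrf3, Mki67 and Xist. It added the 12 highest and 12 lowest ratios of antagonist over control members with 100 CPM or more in either. It also added the 10 highest and 5 lowest ratios of control members over Lgr5-undetected cells and over Lgr5-positive cycling cells, and 2 highest and 2 lowest genes of each list with 50 CPM or more in a library. Unnamed gene models and mitochondrially encoded, ribosomal protein, haemoglobin and antigen receptor genes were left out of the rule, and 1 gene that it named is not reported here. Myb, Sox9, Cdca7, Rgmb in strata, Reg3b and the tuft genes Fyb and Alox5ap were chosen for the text from these lists or after their values were seen.

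The calculation was tested on simulated counts for 1488 genes in antagonist over control members. Each sum was drawn from a Poisson distribution, the model the intervals assume, without differences between cells or mice. The simulation therefore checks the calculation and cannot show that the intervals hold for these cells. The direction was recovered for 100% of genes made 2-fold higher or lower, and equality lay outside the interval for 100% and 90% of these. Among unchanged genes it lay outside for 4.50%. Past 2-fold were 52% of genes made 2-fold higher, 58% of those made 2-fold lower and 0.854% of unchanged genes. Alternatives were other cell filters, Lgr5 and cycle gates, thinning, scalings, cell weights, limits on low counts and added counts. Chosen after seeing the data were matching depth, leaving out shared barcodes or cells with markers of other types, and a list limit of 50 CPM. In every list a gene could pass that limit through the set where it was higher. Python 3.11.15, numpy 2.4.6, scipy 1.17.1, pandas 2.3.3 and matplotlib 3.10.9 were used, with edgeR 4.0.16 for the TMM factors only.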

Additional observations from a re-analysis of the deposited data

Results flagged for a closer look

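Several genes had opposite signs in the libraries when members were compared with Lgr5-undetected cells of the same gates. As log2 ratios in the control and the antagonist library, Alox5ap was at -0.92 and 1.43, Avil at -0.82 and 1.72, Dclk1 at -0.76 and 1.76, and Fyb at -0.82 and 1.99. Kctd12 was at -0.66 and 1.32, Lrmp at -0.76 and 1.90, and Ltc4s at -0.79 and 2.38. Matk was at -1.31 and 1.73, Sh2d6 at -1.02 and 1.43, Trpm5 at -1.33 and 1.66, and Cd24a, which tuft and Paneth cells also express, at -0.27 and 1.49. The difference between the libraries was not tested for any of them. Beside these values, tuft-marker cells made up 2.73% of members and 3.83% of undetected cells in the control library, and 15.8% and 4.60% in the antagonist library. The antagonist side rests on 9 cells.

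Y-linked transcripts reached 121 CPM in control members although the mice are labelled female. In antagonist members they were at 13.4 CPM, 2 UMIs.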

How the results depend on the processing

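No paired analysis was possible because each condition had 1 library, and for the same reason no replicate could be left out. Members made up 14.0% of control and 0.517% of antagonist cells. The control share was 15.2% with at least 1000 genes and at most 10% mitochondrial UMIs, 13.1% with at least 200 genes and at most 50%, and 11.5% after thinning to 3000 UMIs. With 2 or more Lgr5 UMIs the shares were 3.78% and 0.0272%, without a cycle gate 26.5% and 1.35%, and with strict gates 6.34% and 0.182%. The 2-UMI rule left 3 antagonist cells, too few for gene levels.

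The genes 2-fold higher and lower in antagonist members numbered 64 and 60. These counts were 248 and 163 with strict gates, 153 and 113 after thinning, 102 and 93 with depth matched, 175 and 212 at 50 CPM, and 941 and 985 with a limit of 20 UMIs alone. Leaving mitochondrially encoded and ribosomal protein genes out of the totals gave 125 lower, and equal weight for each cell gave 104 higher. The signature median ran from -1.58 without a cycle gate to -0.80 with 1 added to each sum, and the Wnt target median from -1.27 to -0.26. Neither reversed under any alternative run.

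Of 2272 values for 142 named genes under the alternatives, 2101 stayed, 148 moved and 23 reversed. The reversed log2 ratios were as follows. Without a cycle gate they were Apoa1 1.64, Hnf4g 0.97, Itln1 1.79, Polr1a -0.28 and Ung -0.14, and with strict gates Ghrl 2.51 and Prc1 -0.77. After thinning they were Alox5ap -2.42, Apoa1 0.88, Avil -1.25, Cd24a -0.29, Ghrl 3.12, Hnf4g 0.16, Nfkbia 0.68 and Sct -0.71. With equal weights it was Apoa1 0.66, and with depth matched Apoa1 1.32 and Ghrl 0.80. Without cells holding markers of other types they were Apoa1 1.79, Cd24a -0.042, Ghrl 2.38, Kctd12 -0.79 and Ltc4s -0.27. The cause was not tested. Thinning, with the gates applied again, left 20 antagonist members. The last setting removed 64 control members, and from the antagonist set 9 tuft-marker cells. Positive values for Ghrl come from counts added to a sum of 0 and give no direction. The 148704 UMIs of 57 antagonist members are the main limit on every level in that set.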

Other observations

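Among abundant transcripts past 2-fold between antagonist and control members, several belong to none of the lists above and were picked after their values were seen. Lgals2, a galectin of the gut epithelium, was at 6040 CPM in control members and 13739 CPM in antagonist members, a ratio of 2.27 (2.17 to 2.38), and was the most abundant of the genes past 2-fold. Krt8, an intermediate filament keratin of simple epithelia, had 470 and 1056 CPM and a ratio of 2.25 (1.90 to 2.64). Mgst3, a microsomal glutathione transferase, had a ratio of 2.10 (1.80 to 2.43), and Minos1, a protein of the mitochondrial inner membrane, 2.26 (1.88 to 2.69). The ubiquitin gene Ubb was lower, at 1593 and 787 CPM, a ratio of 0.494 (0.408 to 0.593). These ratios come from 1 library per condition and were not tested.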
